A study of Mus musculus with 8 samples.

Results

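Genes that mark the inner lining of blood and lymph vessels were followed in a salivary gland, the submandibular gland, of wild-type (WT) and Dp16 male mice. The 42 members were a fixed list of endothelial and vessel symbols, matched by Ensembl gene number on the mouse build GRCm38, out of 54838 genes counted. All 42 were found once and all 42 passed the filter on low counts. WT mice were C57BL/6J, the strain the sample labels give for all 8 libraries, and Dp16 mice were B6.129S7-Dp(16Lipi-Zbtb21)1Yey/J, a model of Down syndrome in which the part of chromosome 16 from Lipi to Zbtb21 is duplicated in every cell. There were 4 libraries of each genotype, each from gland tissue cleared of the fat and connective tissue around it, with no treatment named. The sources used here give neither age nor whether glands of several mice were pooled, so p-values measure only the spread between these libraries. None of the members lies in the duplicated segment (chromosome 16 from 75540514 to 97962622), so each has the same copy number in both genotypes. Cldn5, on chromosome 16 from 18776847 to 18778262, is the 1 member on that chromosome.

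Endothelial cells form the wall of capillaries and line larger vessels. Vascular endothelial growth factor (VEGF) and angiopoietin, made largely by surrounding cells, act through receptor kinases on them, and Notch ligands with SOX transcription factors shape arteries. Lymphatic endothelium uses its own regulator, PROX1, while venules carry the selectins and immunoglobulin-type adhesion molecules that let leukocytes leave the blood. In salivary glands the capillary bed supplies the water of saliva and is controlled by the nerves that drive secretion.

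Reads assigned to genes numbered 90790542 to 115729892 per library. Reads overlapping no counted feature, which can include introns, took 13.8% to 15.9% of all reads in WT and 18.4% to 20.8% in Dp16, and their part in the results below was not tested. In bulk tissue, a change in the number of endothelial cells and a change in RNA per cell cannot be told apart. Dp16 replicate 3 stood apart in leukocyte genes: its 11 macrophage markers summed to 410 CPM (read counts scaled to a common library size) against 231.7 to 272 in the other Dp16 libraries and 261 to 285 in WT. The 15 lymphocyte markers summed to 33.4 to 41.99 CPM in WT and to 95.5, 53.0, 129 and 80.1 CPM in Dp16 replicates 1 to 4. All 15 had a positive log2 fold change. Most of each sum was Ptprc, a gene of all leukocytes, with 26.5 to 33.5 CPM in WT. Ptprc had 67.7, 40.0, 88.4 and 59.0 CPM in Dp16 replicates 1 to 4. Beside each member whose log2 fold change moved by over 1.5 times without Dp16 replicate 3, the value without it is given.

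Pecam1, Cdh5, Kdr, Tie1 and Emcn, genes that define endothelium, were detected in every library. Per length, Plvap had the highest mean level of the members (5.09 CPM per kilobase of exon over the 8 libraries), followed by Ly6c1 (4.05), Podxl (2.78), Eng (2.66) and Pecam1 (2.43). Plvap forms the diaphragms of fenestrated capillaries. At the other end were Tal1 (0.0782), Sele (0.0583) and Prox1 (0.0476 CPM per kilobase). Sele rested on 3 to 35 reads per library, Ackr1 on 11 to 55, Tal1 on 21 to 49 and Prox1 on 32 to 63, so their fold changes are imprecise.

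Most vessel genes had a somewhat higher mean in Dp16, and no member passed the test over all genes. Of the 42 members 36 had a positive log2 fold change, where 51.1% of all 19358 genes tested were positive. The median of the members was 0.38 on the log2 scale, a fold of 1.30, beside a median of 0.01 over all genes tested, and the members ranged from -0.18 (Prox1) to 0.76 (Vcam1). The quasi-likelihood test of edgeR at an adjusted p below 0.05 called 0 of the 42 members, as limma-voom did, where edgeR called 0.625% of all genes tested (0.470% higher and 0.155% lower) and limma-voom 2.05% (1.28% higher). At an adjusted p below 0.10 edgeR gave 2 members, Flt1 and Esam, both higher, against 6.76% of all genes tested (3.85% higher). At an unadjusted p below 0.05 edgeR gave 11 members, all higher, against 24.6% of all genes tested (12.7% higher and 11.9% lower). DESeq2 called 4 members higher (Flt1, Tek, Esam and Clec14a) and 0 lower, where it called 5.89% of all genes higher and 4.37% lower. The same shares over all genes apply to the counts by role group and by list below. Groups did not overlap in 5 members (Flt1, Tek, Esam, Cldn5 and Sox17), all with Dp16 above, as in 7.11% of all genes tested, and 0 members lay apart with Dp16 below, as 6.96% of all genes did.

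**Figure D1:**
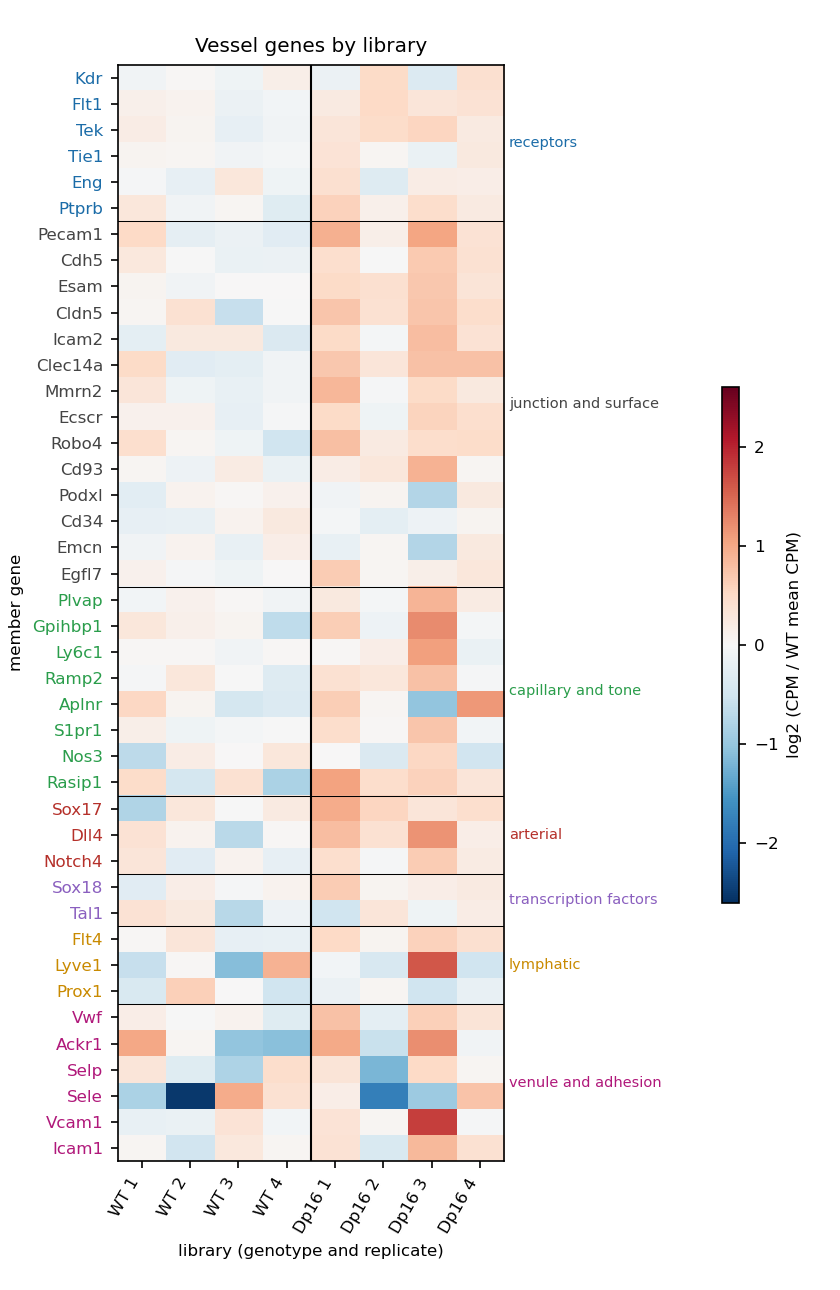
Level of each of the 42 members in each of the 8 libraries, as log2 of CPM over the WT mean of that gene, with members in rows by role group and libraries in columns. Red tones prevail in Dp16 replicates 1 and 3, while Dp16 replicate 2 is close to the WT libraries for most members.

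**Figure D2:**
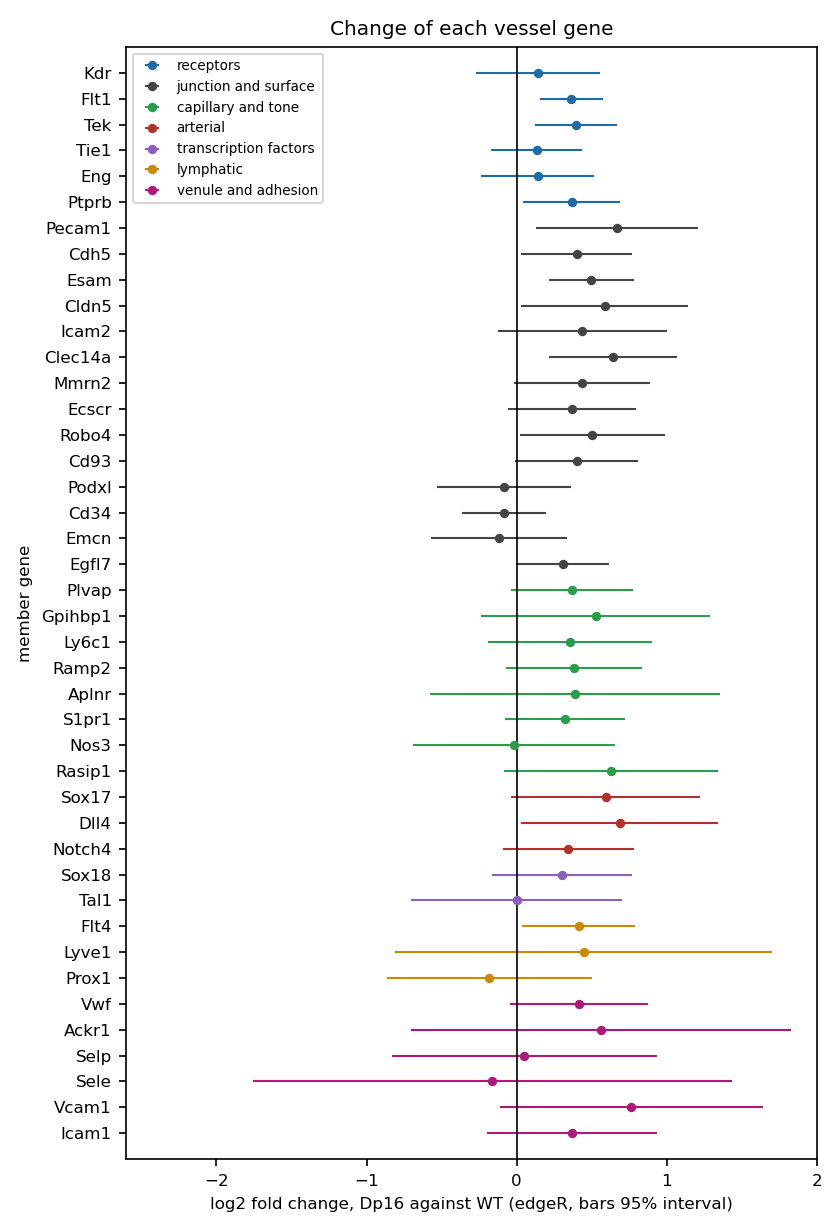
Log2 fold change of each member, Dp16 against WT, by edgeR (points), with its 95% confidence interval (bars) and role groups in colour. Points lie to the right of 0 for 36 of the 42 members, and intervals are widest for Sele, Ackr1 and Lyve1.

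The Dp16 libraries were uneven. The median of the members against their WT mean was 0.43, 0.06, 0.58 and 0.24 on the log2 scale in Dp16 replicates 1 to 4, and lay between -0.08 and 0.08 in the WT libraries. Dp16 replicate 2 thus fell among the WT libraries, while the others lay above all of them. Counted by gene, 29, 9, 31 and 21 of the 42 members in Dp16 replicates 1 to 4 exceeded the highest WT library, where 28.7%, 24.2%, 31.8% and 24.7% of all genes tested did so. Dp16 replicate 3 held the highest Dp16 value of 23 members and Dp16 replicate 2 the lowest of 22. The share of all genes with that order was not counted. Over all 19358 genes tested, Dp16 replicate 3 had the most genes outside the WT range, with 6164 above the highest WT library and 6307 below the lowest. The summed lymphocyte markers, mostly Ptprc, were also highest in Dp16 replicate 3 and, among the Dp16 libraries, lowest in Dp16 replicate 2. Their part in the vessel genes was not tested. Without Dp16 replicate 3 the median of the members was 0.27, and without Dp16 replicate 2 it was 0.47.

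Promoter windows of RefSeq (build GRCm38.p6, 250 bases before to 50 after the start) are shown for 3 of the 4 members that DESeq2 called. Esam had no window in the set used. Capitals mark AGGAAG, a core sequence bound by ETS factors such as ERG, on either strand. The Flt1 window (chr5:147725962-147726261, minus strand) holds 2 matches, and the windows of Tek (chr4:94739039-94739338, plus strand) and Clec14a (chr12:58269209-58269508, minus strand) hold 0.
Flt1: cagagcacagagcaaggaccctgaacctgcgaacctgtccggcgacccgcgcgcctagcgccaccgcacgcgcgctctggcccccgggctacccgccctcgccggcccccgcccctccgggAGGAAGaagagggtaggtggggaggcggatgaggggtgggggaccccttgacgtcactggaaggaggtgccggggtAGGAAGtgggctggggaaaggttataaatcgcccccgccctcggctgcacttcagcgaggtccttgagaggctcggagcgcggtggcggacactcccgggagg
Tek: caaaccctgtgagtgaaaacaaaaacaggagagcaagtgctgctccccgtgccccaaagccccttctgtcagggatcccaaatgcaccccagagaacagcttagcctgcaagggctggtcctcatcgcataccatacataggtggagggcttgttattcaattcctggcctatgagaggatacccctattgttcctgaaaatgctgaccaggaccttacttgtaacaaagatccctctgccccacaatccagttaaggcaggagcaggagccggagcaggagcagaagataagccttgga
Clec14a: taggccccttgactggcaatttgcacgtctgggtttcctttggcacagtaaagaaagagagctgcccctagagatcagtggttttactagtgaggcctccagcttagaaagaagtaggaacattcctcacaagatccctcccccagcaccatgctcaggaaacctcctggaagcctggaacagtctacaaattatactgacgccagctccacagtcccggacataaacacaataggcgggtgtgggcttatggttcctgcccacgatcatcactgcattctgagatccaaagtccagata
AGGAAG occurs in a window of 13 of the 22 members with a window, against 38.4% of the 27025 genes with a window and 35.4% of all 32851 windows. A match is only a run of letters, and a window without one shows nothing of factor binding. Control of the members by ETS factors was not tested.

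Growth factor receptors came first among the roles, 6 members with a median log2 fold change of 0.25, all positive. By edgeR 0 of 6 were called, 3 had an unadjusted p below 0.05, and DESeq2 called 2 higher and limma-voom 0. Over all genes, 12.7% were higher at that unadjusted p, and DESeq2 called 5.89% higher. Flt1, a VEGF receptor that binds VEGF-A and placental growth factor and acts in part as a decoy, had 18.9, 18.4, 15.7 and 16.4 CPM in WT replicates 1 to 4 and 20.3, 24.9, 21.6 and 22.5 CPM in Dp16 replicates 1 to 4. Every Dp16 library was above every WT library. Its log2 fold change was 0.36 (SE 0.0934, edgeR adjusted p = 0.0815, DESeq2 adjusted p = 0.026), and 0.38 without Dp16 replicate 3. Tek, the angiopoietin receptor TIE2, had 6.11, 5.55, 4.61 and 4.98 CPM in WT and 6.59, 7.35, 7.82 and 6.25 CPM in Dp16, again without overlap (0.40, edgeR adjusted p = 0.11, DESeq2 adjusted p = 0.0464). Kdr, the main signalling receptor for VEGF-A, spread widely in Dp16, with 13.4, 14.4, 13.1 and 15.8 CPM in WT against 12.7, 19.99, 11.1 and 18.8 CPM in Dp16. Dp16 replicates 2 and 4 lay above all WT libraries and replicates 1 and 3 below them, and the log2 fold change of 0.14 had a 95% confidence interval from -0.27 to 0.56, and was 0.28 without Dp16 replicate 3 and 0.0025 without Dp16 replicate 2. Tie1, the partner receptor of TIE2, and Eng, the endoglin co-receptor of bone morphogenetic proteins, overlapped between genotypes (0.13 and 0.14, edgeR adjusted p = 0.557 and 0.625). Tie1 had 0.22 without Dp16 replicate 3, and without Dp16 replicate 1 Tie1 had 0.05 and Eng 0.03. Ptprb, the phosphatase that restrains TIE2 and VE-cadherin, had a WT mean of 19.98 ± 3.57 CPM and a Dp16 mean of 25.8 ± 3.70 CPM (SD, n = 4 per genotype, 0.37, edgeR adjusted p = 0.165), with Dp16 replicates 1 and 3 above all WT libraries.

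Among the ligands, Vegfa and Pgf were the genes with the smallest p, and both had negative fold changes. Vegfa, the VEGF-A gene and a product of epithelial as well as other cells, had 269.8, 397, 459 and 300.3 CPM in WT replicates 1 to 4 and 170.0, 180.3, 109 and 261 CPM in Dp16 replicates 1 to 4. All Dp16 libraries lay below all WT libraries, with a log2 fold change of -0.99 (SE 0.26, edgeR adjusted p = 0.085, DESeq2 adjusted p = 0.00404, limma-voom adjusted p = 0.055). Pgf, placental growth factor and a ligand of FLT1, had 2.62, 2.86, 2.80 and 2.85 CPM in WT and 1.45, 2.07, 1.15 and 1.25 CPM in Dp16. These groups were apart too (-0.91, SE 0.194, edgeR adjusted p = 0.0667, DESeq2 adjusted p = 0.000524, limma-voom adjusted p = 0.0327). Of 18 tested genes among 24 listed ligands and partners, edgeR called 0, with 1 higher and 2 lower at an unadjusted p below 0.05, and DESeq2 called 0 higher and 2 lower. Their median log2 fold change was 0.08. Vegfb, another FLT1 ligand, had -0.25 (edgeR adjusted p = 0.257), and Calcrl, the adrenomedullin receptor that pairs with Ramp2, had 0.34 (edgeR adjusted p = 0.178). The 6 acinar markers tested were all negative (median -0.43). Of the 10 duct markers 6 were positive and 4 negative (median 0.03). Their sum, mostly the duct gene Egf, was 31339, 45397, 66611 and 37110 CPM in WT replicates 1 to 4. In Dp16 replicates 1 to 4 it was 24438, 29605, 17330 and 46329 CPM. The part of acinar or duct cells in the lower Vegfa was not tested.

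**Figure D3:**
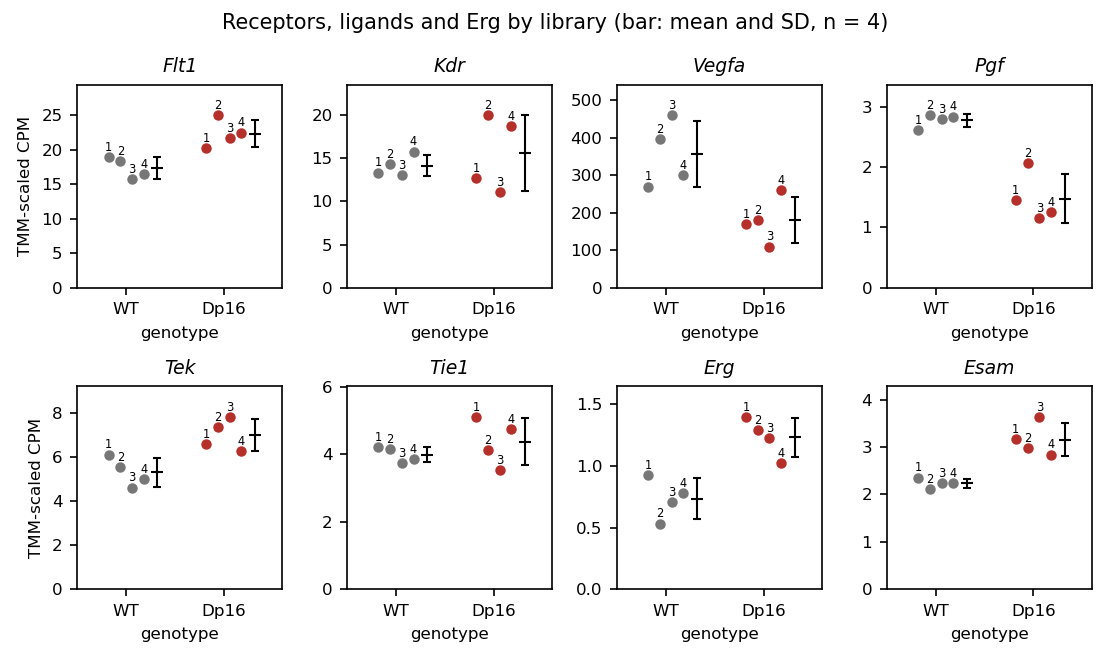
TMM-scaled CPM of receptors (Flt1, Kdr, Tek, Tie1), ligands (Vegfa, Pgf), the transcription factor gene Erg and the junction gene Esam in each library, with digits for the replicate and bars for mean and SD (n = 4). Flt1, Tek, Erg and Esam lie higher and Vegfa and Pgf lower in all 4 Dp16 libraries than in any WT library, while Kdr and Tie1 overlap.

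Junction and surface genes formed the largest group, 14 members with a median of 0.42 and 11 positive. By edgeR 0 were called, 6 had an unadjusted p below 0.05 (all higher), and DESeq2 called 2 higher and limma-voom 0. Over all genes, 12.7% were higher at that unadjusted p, and DESeq2 called 5.89% higher. Esam, an adhesion molecule of endothelial tight junctions, had 2.36, 2.11, 2.24 and 2.24 CPM in WT replicates 1 to 4 and 3.17, 2.98, 3.64 and 2.84 CPM in Dp16 replicates 1 to 4. The WT libraries were close together and all Dp16 libraries above them (0.50, SE 0.126, edgeR adjusted p = 0.0809, DESeq2 adjusted p = 0.00748). Clec14a, a C-type lectin of endothelium, had 6.59, 3.83, 3.93 and 4.41 CPM in WT and 7.63, 5.83, 7.97 and 7.91 CPM in Dp16. WT replicate 1 exceeded Dp16 replicate 2, so the groups overlapped (0.65, SE 0.19, edgeR adjusted p = 0.103, DESeq2 adjusted p = 0.0248). Cldn5, the sealing claudin of endothelial tight junctions, was low, with 0.433, 0.552, 0.278 and 0.416 CPM in WT and 0.695, 0.555, 0.696 and 0.579 CPM in Dp16. Its groups were apart by a narrow margin between WT replicate 2 and Dp16 replicate 2 (0.59, edgeR adjusted p = 0.186).

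Pecam1 (CD31), an adhesion molecule of endothelial junctions that platelets and many leukocytes carry too, had 16.8, 9.90, 10.6 and 9.52 CPM in WT replicates 1 to 4 and 22.3, 13.0, 23.9 and 15.1 CPM in Dp16 replicates 1 to 4. WT replicate 1 lay above Dp16 replicates 2 and 4 (0.67, edgeR adjusted p = 0.145). Cdh5, VE-cadherin, which is more restricted to endothelium, had 5.41, 4.45, 3.94 and 4.02 CPM in WT and 6.00, 4.45, 7.18 and 5.87 CPM in Dp16 (0.40, edgeR adjusted p = 0.18). In both genes Dp16 replicate 2 stayed within the WT range. Robo4, a guidance receptor that steadies vessels, had 0.50, the CD93 gene Cd93 and its matrix ligand Mmrn2 had 0.40 and 0.43, and Icam2, a resting adhesion molecule, had 0.44. Ecscr, an endothelial surface regulator, had 0.37 and Egfl7, a secreted vessel factor, had 0.31. The edgeR adjusted p-values of these 6 lay between 0.19 and 0.302. Without Dp16 replicate 3, Cd93 had 0.19 and Icam2 0.29, and without Dp16 replicate 1, Mmrn2 had 0.25 and Egfl7 0.17. The 3 negative members were sialomucins, heavily glycosylated surface proteins: Podxl (-0.08), Cd34 (-0.08) and Emcn (-0.12), at edgeR adjusted p-values of 0.818, 0.697 and 0.739. The 95% confidence interval of Cd34 ran from -0.36 to 0.20. Podxl and Emcn had their lowest value of all 8 libraries in Dp16 replicate 3 (9.20 and 2.82 CPM), the library in which Pecam1 and Cdh5 were highest, and without it they had 0.09 and 0.04.

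Capillary and vessel tone genes, 8 members, had a median of 0.38, with 7 positive. EdgeR called 0 of them and found 0 at an unadjusted p below 0.05, and neither DESeq2 nor limma-voom called any. Plvap had 8.44, 9.54, 8.97 and 8.34 CPM in WT replicates 1 to 4 and 10.5, 8.50, 16.3 and 10.3 CPM in Dp16 replicates 1 to 4 (0.37, edgeR adjusted p = 0.237). Ly6c1, a surface protein of capillaries and of some leukocytes that has a close copy in Ly6c2, had 6.07, 6.08, 5.603 and 6.09 CPM in WT and 6.08, 6.68, 12.5 and 5.31 CPM in Dp16 (0.36, edgeR adjusted p = 0.379). A single library, Dp16 replicate 3, carried most of both differences, and without it Plvap had 0.15 and Ly6c1 0.02. The same library was highest for Gpihbp1, which holds lipoprotein lipase on capillaries (0.53, and 0.20 without it), for Ramp2, the adrenomedullin receptor partner (0.38 and 0.23), and for S1pr1, a sphingosine phosphate receptor shared with lymphocytes (0.32 and 0.16). Aplnr, the apelin receptor, went the other way there, with 0.269 CPM in Dp16 replicate 3 against 0.850, 0.563 and 1.19 CPM in Dp16 replicates 1, 2 and 4 and 0.397 to 0.795 CPM in WT. Its log2 fold change was 0.39, with 0.66 without that library and 0.03 without Dp16 replicate 4. Nos3, the endothelial nitric oxide synthase that relaxes vessels, had a WT mean of 0.759 ± 0.204 CPM and a Dp16 mean of 0.75 ± 0.256 CPM (SD, n = 4 per genotype, -0.02, 95% confidence interval -0.69 to 0.65, and -0.27 without Dp16 replicate 3). Rasip1, needed for vessel lumens, had 0.63 (edgeR adjusted p = 0.25). The median of the 8 was 0.18 without Dp16 replicate 3.

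Arterial genes, Sox17, Dll4 and Notch4, had a median of 0.59, and all 3 were positive. By edgeR 0 were called, 1 (Dll4) had an unadjusted p below 0.05, and neither DESeq2 nor limma-voom called any. Over all genes tested, 12.7% were higher at that unadjusted p. Sox17, a transcription factor of arterial endothelium, had 0.262, 0.552, 0.446 and 0.529 CPM in WT and 0.877, 0.659, 0.557 and 0.610 CPM in Dp16 (0.59, edgeR adjusted p = 0.223). The groups were apart by a margin smaller than the spread within either. Dll4, the Notch ligand of arteries and sprouting tip cells, had 0.946, 0.770, 0.446 and 0.737 CPM in WT and 1.27, 0.953, 1.63 and 0.816 CPM in Dp16, with Dp16 replicate 4 within the WT range (0.69, edgeR adjusted p = 0.189). Notch4, an endothelial Notch receptor, had 0.35 (edgeR adjusted p = 0.296), and 0.22 without Dp16 replicate 3. Among 13 other Notch and arterial genes the median was -0.03, edgeR called 0 and gave 0 higher and 2 lower at an unadjusted p below 0.05, and neither DESeq2 nor limma-voom called any. Those by smallest p were Efnb2 (-0.23), Hes1 (-0.31), Gja4 (0.60) and Notch1 (-0.24), with edgeR adjusted p-values from 0.198 to 0.441. Efnb2, an arterial ephrin, and Hes1, a Notch target, are also made outside vessels.

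**Figure D4:**
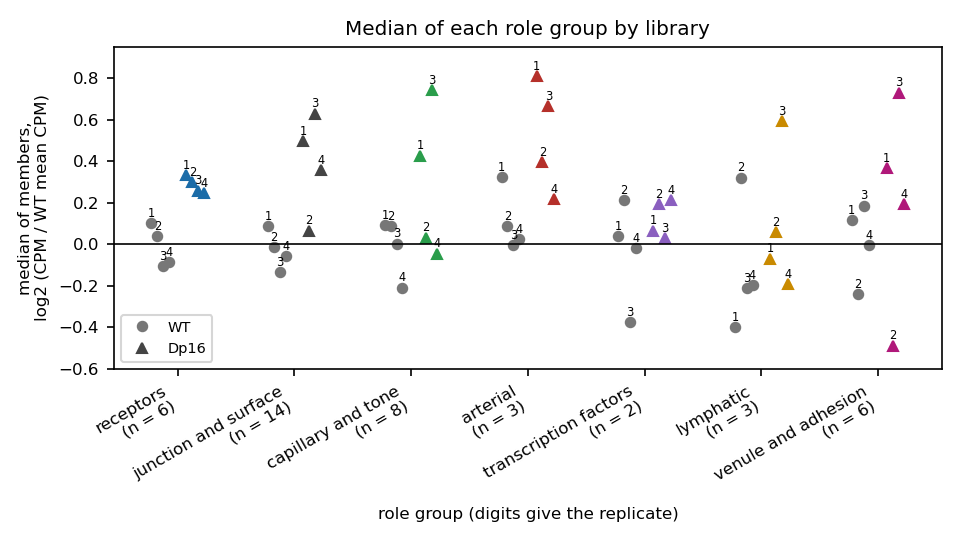
Median over the members of each role group in each library, as log2 of CPM over the WT mean of each gene, with circles for WT, triangles for Dp16 and digits for the replicate. For receptors all 4 Dp16 libraries lie above all WT libraries, from 0.25 to 0.33, while for the venule and adhesion group they run from -0.49 to 0.73.

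Of 3 sets compared next, the first and second held transcription factors of the endothelium, and the third held other vessel-related genes as well. Of the members, Sox18 had 0.30 and Tal1, a factor shared with blood cell precursors, had 0.002 (edgeR adjusted p = 0.382 and 0.998), with 0 called by edgeR, DESeq2 or limma-voom and 0 at an unadjusted p below 0.05. Sox18 had 0.16 without Dp16 replicate 1, and Tal1 0.04 without Dp16 replicate 3. Among 16 tested factors outside the duplication, with a median of 0.16, edgeR called 1 higher, limma-voom 1 and DESeq2 3, and 5 had an unadjusted p below 0.05, all higher. The called gene was Hhex, a homeobox factor of endothelial and blood lineages, at 0.403, 0.396, 0.337 and 0.425 CPM in WT and 0.896, 0.849, 0.900 and 0.816 CPM in Dp16. All Dp16 libraries were above all WT libraries (1.15, SE 0.181, edgeR adjusted p = 0.0388). Hhex rose in the comparison of all 8 libraries and lost its call in each omission of 1 library except that of Dp16 replicate 2, at edgeR adjusted p-values of 0.0569 to 0.131, while its log2 fold change stayed between 1.07 and 1.19. The ETS factors Fli1 (0.61) and Ets1 (0.50), which lymphocytes express as well, were at edgeR adjusted p-values of 0.0807 and 0.0766, and Mef2c (0.32) had 0.127.

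The third set were vessel-related genes inside the duplicated segment, present in 3 copies in Dp16. Erg, the ETS factor most closely tied to endothelial identity (chromosome 16 from 95359169 to 95586593), had 0.926, 0.531, 0.704 and 0.781 CPM in WT and 1.40, 1.29, 1.23 and 1.02 CPM in Dp16. All Dp16 libraries were above all WT libraries (0.75, SE 0.212, edgeR adjusted p = 0.0965, DESeq2 adjusted p = 0.0167). Of the 8 genes 7 were positive, with a median of 0.47, and edgeR called 1 higher, limma-voom 2 and DESeq2 4. Runx1, a factor of blood-forming endothelium and of leukocytes, rose from 16.1 ± 0.589 to 27.9 ± 4.76 CPM (SD, n = 4 each, 0.79, edgeR adjusted p = 0.0306). Its call was lost without WT replicates 1 to 4 or Dp16 replicates 1 and 4 (edgeR adjusted p-values of 0.0517 to 0.116), while its log2 fold change lay between 0.68 and 0.87 in all 8 omissions. Rcan1, a calcineurin regulator that VEGF induces in endothelium, had 0.70, the matrix protease gene Adamts5 had 1.16 and Ets2 had 0.23, at edgeR adjusted p-values of 0.071, 0.0733 and 0.115. Jam2, an endothelial junction molecule (-0.10), Cxadr, a junction molecule of epithelium (0.03), and the protease gene Adamts1 (0.06) were at edgeR adjusted p-values of 0.695, 0.906 and 0.932. For Jam2 the 8 libraries overlapped, with 21.6, 18.9, 30.4 and 21.6 CPM in WT and 22.4, 21.02, 18.8 and 24.2 CPM in Dp16.

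Lymphatic genes differed among themselves. Flt4, the receptor of the lymphatic factor VEGF-C, had 2.81, 3.46, 2.39 and 2.41 CPM in WT and 3.95, 2.90, 4.18 and 3.71 CPM in Dp16 (0.41, unadjusted p = 0.0353, edgeR adjusted p = 0.177). Dp16 replicate 2 lay within the WT range. Lyve1, a hyaluronan receptor of lymphatic endothelium and of some tissue macrophages, had 3.24, 4.997, 2.28 and 9.15 CPM in WT and 4.69, 3.69, 15.1 and 3.43 CPM in Dp16. Dp16 replicate 3 alone exceeded WT, and the log2 fold change of 0.45 was -0.33 without it. Prox1, the defining factor of lymphatic endothelium, was low, at 32 to 63 reads per library, with a WT mean of 0.425 ± 0.164 CPM and a Dp16 mean of 0.374 ± 0.0596 CPM (SD, n = 4 per genotype, -0.18, edgeR adjusted p = 0.736, and -0.09 without Dp16 replicate 3). The median of the 3 was 0.41 with all libraries and -0.09 without Dp16 replicate 3. By edgeR 0 of the 3 were called, 1 had an unadjusted p below 0.05, and neither DESeq2 nor limma-voom called any. Over all genes tested, 12.7% were higher at that unadjusted p. Of 8 further lymphatic genes tested, 0 were called by edgeR, DESeq2 or limma-voom, 0 had an unadjusted p below 0.05, and the median was 0.27. Those by smallest p were Piezo1 (0.35), Stab2 (0.86), Reln (0.29) and Pdpn (0.30).

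Venule and leukocyte adhesion genes, 6 members, had a median of 0.39, and 5 were positive. By edgeR 0 were called, 0 had an unadjusted p below 0.05, and neither DESeq2 nor limma-voom called any. Vcam1, the adhesion molecule for integrin alpha 4 beta 1, found on activated endothelium and on some macrophages and stromal cells, had 8.52, 8.64, 12.4 and 9.25 CPM in WT and 12.4, 10.1, 33.9 and 9.53 CPM in Dp16. Dp16 replicate 3 had nearly all of the excess: the log2 fold change was 0.76 with it (SE 0.389, edgeR adjusted p = 0.253) and 0.14 without it. Icam1, the ligand of the leukocyte integrin LFA-1, had 4.12, 2.81, 4.82 and 4.14 CPM in WT and 5.16, 3.03, 7.09 and 5.23 CPM in Dp16. Dp16 replicate 2 again was within WT, and the others were above it (0.37, edgeR adjusted p = 0.383, and 0.17 without Dp16 replicate 3). Vwf, the clotting protein stored in endothelium with P-selectin, had a WT mean of 8.79 ± 1.23 CPM and a Dp16 mean of 11.7 ± 3.29 CPM (SD, n = 4 per genotype, 0.42, edgeR adjusted p = 0.24).

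P-selectin and E-selectin transcripts were low in both genotypes. Selp, P-selectin, had a WT mean of 0.853 ± 0.321 CPM and a Dp16 mean of 0.886 ± 0.369 CPM (SD, n = 4 per genotype), a log2 fold change of 0.05, and of -0.14 without Dp16 replicate 3. Sele, E-selectin, which inflammatory cytokines induce, had 0.101, 0.0312, 0.347 and 0.234 CPM in WT and 0.201, 0.052, 0.0928 and 0.3 CPM in Dp16. Its log2 fold change of -0.16 had a 95% confidence interval from -1.76 to 1.43, and was 0.03 without Dp16 replicate 3. Ackr1, a chemokine receptor that marks venules, had 0.56 (95% confidence interval -0.70 to 1.83), with 0.26 without Dp16 replicate 3 and 1.13 without WT replicate 1. The group score was 0.37, -0.49, 0.73 and 0.19 in Dp16 replicates 1 to 4, and -0.24 to 0.19 in WT. The summed macrophage and lymphocyte markers were highest in the same library, Dp16 replicate 3. Gene by gene, 8 of 11 macrophage markers and 10 of 15 lymphocyte markers were highest there, while the macrophage genes Adgre1, Csf1r and Marco were highest in a WT library and 5 lymphocyte markers in Dp16 replicate 1. Their part in Vcam1, Icam1 and Lyve1 was not tested. The median of the 6 genes was 0.16 without Dp16 replicate 3 and 0.57 without Dp16 replicate 2.

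Genes on the leukocyte side of these contacts were listed as well. Of 11 listed integrin and other leukocyte genes, edgeR called 0, DESeq2 5 higher and limma-voom 1 higher, 6 had an unadjusted p below 0.05, all higher, and the median was 0.79. The fold change was positive in 8 and negative in 3 of them, down to -0.46, and the summed level of the list overlapped, at 279.7 to 319 CPM in WT and 290.3 to 325 CPM in Dp16. Itga4, the integrin subunit that binds VCAM-1, had 10.06, 11.4, 10.3 and 8.29 CPM in WT and 25.5, 12.4, 31.6 and 16.6 CPM in Dp16 (1.10, edgeR adjusted p = 0.0733, DESeq2 adjusted p = 0.00159). All Dp16 libraries were above all WT libraries, and Dp16 replicate 2 was nearest to them. Itgb7 (0.97) and Itgal (0.88), an LFA-1 subunit, were at edgeR adjusted p-values of 0.0666 and 0.0848. Of 14 tested inducers of adhesion genes, with a median of -0.04, edgeR called 0, with 4 higher and 1 lower at an unadjusted p below 0.05, DESeq2 called 2 higher and 1 lower, and limma-voom 0. The cytokine genes Ltb (1.61) and Tnf (1.63) and the receptor gene Tnfrsf1b (0.68) were positive, and Ltbr (-0.33), the lymphotoxin receptor, was negative, at edgeR adjusted p-values of 0.103, 0.12, 0.158 and 0.0766.

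**Figure D5:**
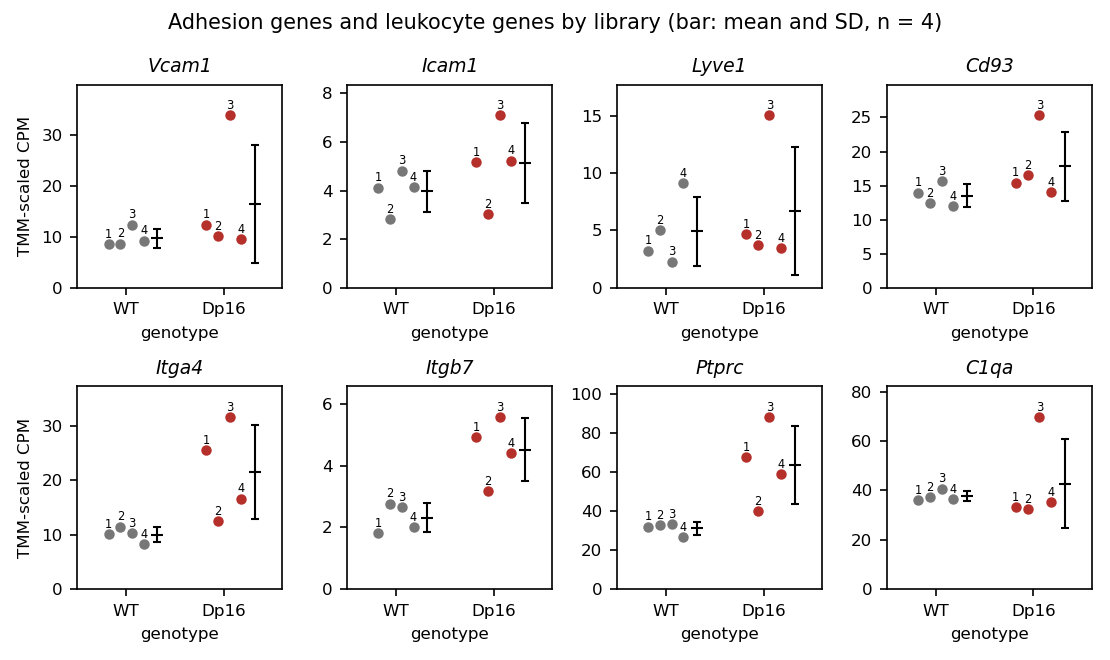
TMM-scaled CPM of adhesion and surface genes (Vcam1, Icam1, Lyve1, Cd93) and of leukocyte genes (Itga4, Itgb7, the pan-leukocyte gene Ptprc and the macrophage gene C1qa) in each library, with digits for the replicate and bars for mean and SD (n = 4). Dp16 replicate 3 is the highest point in every panel, at 33.9 CPM for Vcam1 and 69.8 CPM for C1qa, which is among the 8 of 11 macrophage markers highest there.

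Genes of the high endothelial venule, the vessel type through which lymphocytes enter lymph nodes, were sparse. Of 8 listed genes 5 were tested, 4 were positive and 4 had an unadjusted p below 0.05, while edgeR and limma-voom called 0 and DESeq2 1 higher (median 0.55). Fut4 (0.55) and Fut7 (1.81), which build selectin ligands in leukocytes as well, and Gcnt1 (0.79) and Enpp2 (0.39) were at edgeR adjusted p-values of 0.0918, 0.153, 0.145 and 0.153. Fut7 rested on 1 to 30 reads per library.

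Pericytes and arterial muscle, the cells around the endothelium, were compared with 16 genes, of which edgeR called 0 (median 0.13), with 3 higher and 2 lower at an unadjusted p below 0.05, limma-voom 1 higher and DESeq2 2 higher and 1 lower. Rgs5, a pericyte regulator of G protein signalling, had 21.5, 17.1, 17.3 and 17.9 CPM in WT and 29.5, 22.1, 26.99 and 27.6 CPM in Dp16. All Dp16 libraries were above all WT libraries (0.52, SE 0.111, edgeR adjusted p = 0.0648, DESeq2 adjusted p = 0.0034). Notch3 (0.40) and Higd1b (0.87), both pericyte genes, were at edgeR adjusted p-values of 0.0796 and 0.12. Cnn1 (-0.52, edgeR adjusted p = 0.103), a contractile gene, is shared with the myoepithelial cells of the gland. Within this list of 16 the fold change was positive for 10 genes and negative for 6. Genotypes overlapped in the summed level of the list, at 459 to 560 CPM in WT and 465 to 560 CPM in Dp16. Marker lists for other contents of the tissue differed in direction. The 8 tested platelet and red cell markers summed to 85.9 to 135 CPM in WT and 88.8 to 159.7 in Dp16. Most of each sum was the haemoglobin gene Hbb-bs (57.9 to 94.3 CPM in WT and 62.3 to 112 in Dp16). The sum thus tells little of platelets. The median log2 fold change of the 8 markers was -0.13, with 2 positive and 6 negative. The 9 fibroblast markers summed to 602 to 880.4 CPM in WT and 498 to 803 in Dp16 (median -0.41, 3 positive and 6 negative). The 4 tested adipocyte markers summed to 0.375 to 1.82 and 0.121 to 0.685 CPM (median -1.72, all negative). The median was negative for acinar markers too (-0.43), and positive for duct (0.03), macrophage (0.13) and lymphocyte markers (1.71).

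Annotated exons of 12 members overlap a gene on the other strand (among them Eng, Nos3, Dll4, Vcam1 and Icam1), and those of 4 overlap a gene on the same strand (Egfl7, Ramp2, Rasip1 and Ackr1). The sources used here do not say whether counting used strand, so levels of these members are uncertain.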

How the data were processed

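Total RNA of 8 submandibular gland libraries (4 WT, 4 Dp16) was sequenced after ribosomal RNA depletion with a stranded kit, per the labels' protocols. The authors deposited 1 table per library with whole-number counts of reads for each Ensembl gene. FastQC, STAR, HTSeq and DESeq2, and the build GRCm38, appear in the submitters' processing notes without role or order. The sources used here do not give versions, annotation release or strand setting. Each table had 54838 genes and 5 rows naming no gene, which held 58.1% to 65.4% of reads and were left out. Names and coordinates came from GENCODE M21 (54809 genes matched).

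In R 4.3.3, counts were filtered with the default expression filter of edgeR 4.0.16 (19358 genes), scaled by TMM and tested with glmQLFit and glmQLFTest, genotype only, two-sided, with Benjamini-Hochberg adjustment over all genes tested and a threshold of 0.05. Standard errors and 95% intervals come from that fit. CPM are TMM-scaled. Alternatives were DESeq2 1.42.0, limma-voom (limma 3.58.1) with quality weights, other scalings, filters and threshold, the replicate number as a block, and each library left out in turn. The fits were also run on simulated data, where the pass condition was the right sign for changes larger than that of any member. That condition does not tell whether changes as small as those of the members would be called. Replicate libraries differed by more than sampling noise (chi-square per degree of freedom at least 78.4). Members and lists were chosen with earlier results of these data known. All members and all 8 triplicated vessel genes are named whatever their values, and of each other list of pathway genes up to 4 by smallest p. Ptprc, C1qa, Adgre1, Csf1r, Marco, Egf and Hbb-bs were named after their values were seen. Figf, Ccl21a and Ccl21b are not reported, since each symbol matched no gene or several. Of the leukocyte genes chosen by smallest p, 1 is not reported here.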

Additional observations from a re-analysis of the deposited data

Results flagged for a closer look

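In groups of 4 libraries, a value was singled out where its gap to the nearest library, divided by the range of the group, passed the 95% critical value of Dixon's test. Of 164 groups examined 8 passed, and chance gives about 1 in 20. Dp16 replicate 3 was the high library for Vcam1 (33.9 CPM), Lyve1 (15.1 CPM) and the triplicated gene Adamts1 (9.44 CPM). Dp16 replicate 2 was the low library for Clec14a (5.83 CPM) and Fut4 (2.31 CPM). In WT, replicate 1 was high for Pecam1 (16.8 CPM), replicate 2 high for Enpp2 (12.1 CPM), and replicate 3 low for Ly6c1 (5.603 CPM).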

How the results depend on the processing

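Over all genes, edgeR called 91 higher and 30 lower. DESeq2 called 1145 higher and 851 lower and 4 members higher, limma-voom 247 and 149, edgeR with no expression filter 158 and 65, and an adjusted p below 0.10 gave 746 and 562 and 2 members higher. With the replicate block the counts were 360 and 416, with 1 member, Ptprb, called higher. The labels give the replicate numbers no meaning, and the deviations of same-numbered libraries correlated by 0.19, 0.13, 0.078 and 0.10, with 2 of 4 WT libraries closest to their own number. Leaving out 1 library gave 0 (without WT replicate 2) to 354 higher (without Dp16 replicate 2) and 0 to 92 lower, for the same libraries, and 0 members. The median of the members then ran from 0.27 to 0.47, of receptors from 0.23 to 0.31, of junction genes from 0.33 to 0.52, of capillary genes from 0.18 to 0.45, of arterial genes from 0.44 to 0.71, of transcription factors from 0.048 to 0.23, of lymphatic genes from -0.085 to 0.51 and of adhesion genes from 0.16 to 0.57. Signs turned for Podxl (-0.23 to 0.088), Cd34 (-0.16 to 0.011), Emcn (-0.27 to 0.043), Nos3 (-0.27 to 0.10), Tal1 (-0.18 to 0.14), Lyve1 (-0.33 to 0.94), Prox1 (-0.32 to 0.10), Selp (-0.16 to 0.31) and Sele (-0.65 to 0.35). Tal1 was also -0.0065 by DESeq2, -0.10 by limma-voom, -0.0023 with size factors by relative log expression and -0.00085 with no filter, and Sele 0.24 by limma-voom. The cause was not tested. A filter of 1 CPM in 4 libraries kept 28 members and gave no median for the transcription factors. Few reads limit Sele, Ackr1, Tal1, Prox1 and Sox17.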

Other observations

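Several listed genes had too few reads to be tested. Glycam1, a mucin of high endothelial venules, had 5 and 4 reads in Dp16 replicates 1 and 3 and 0 in the other 6 libraries. Madcam1 and Chst4, of the same vessel type, had at most 1 read in any library. The cytokine genes Lta and Ifng had 18 and 23 reads in Dp16 replicate 3, and at most 7 and 9 in any other library.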
